A study of Mus musculus with 9 samples.

Results

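Of 9 B-cell lymphoma libraries, the 3 with the most and the 3 with the least Alas2 RNA were compared across all genes, with the genotypes pooled and the 3 middle libraries set aside. The 6 libraries were chosen by their Alas2 level in CPM (the counts of a gene scaled by the total count of its library to a total that is the same for all), so Alas2 itself was left out of the gene test. All 9 lymphomas carried the IµBcl6 transgene, which keeps Bcl6 on in B cells, and 1 Cγ1-Cre allele, which recombines once a B cell enters a germinal center. The 3 Bcl6 libraries came from Smc3 wt/wt;Cγ1 wt/cre;IµBcl6 mice. The 6 Smc3/Bcl6 libraries came from Smc3 wt/–;Cγ1 wt/cre;IµBcl6 mice, which lose 1 copy of the cohesin subunit Smc3 in those cells. The labels name lymph node as the tissue, and mesenteric lymph node for replicate 1 of each genotype. No treatment or age was given. Each library was 1 tumor, so that p-values cover only the spread between these libraries.

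Red cells mature from nucleated erythroblasts, which fill with hemoglobin, expel the nucleus and then clear most of their remaining RNA as reticulocytes. Alas2 makes the erythroid form of the enzyme that starts heme synthesis, and Klf1 and Gata1 are transcription factors that switch on globin, heme and membrane genes. In the adult mouse, red cells are made in the bone marrow and, under stress, in the spleen. Reticulocytes and mature red cells reach other tissues with the blood.

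Alas2 (chromosome X, 150547375 to 150570638, plus strand, GRCm38) ranged from 3.15 to 1024 CPM over the 9 libraries. It stood at 1024 CPM in Smc3/Bcl6 4, 335 CPM in Smc3/Bcl6 6 and 137 CPM in Smc3/Bcl6 2, called the Alas2-high libraries here. It stood at 8.42 CPM in Smc3/Bcl6 1, 7.88 CPM in Smc3/Bcl6 3 and 3.15 CPM in Bcl6 1, the Alas2-low libraries. The nearest libraries outside these sets were Bcl6 2 at 102 CPM and Smc3/Bcl6 5 at 24.7 CPM, with Bcl6 3 at 86.7 CPM between them. All 3 Alas2-high libraries were Smc3/Bcl6, while the Alas2-low set held 1 Bcl6 and 2 Smc3/Bcl6 libraries. Both libraries labelled mesenteric lymph node were Alas2-low, so tissue label and set could not be fully told apart. The study's own text names mesenteric lymph node as the source for both genotypes, and which is right was not settled here, so the tissue label may not mark a difference in site. In bulk tissue, more erythroid cells and more RNA per erythroid cell cannot be told apart.

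The second erythroid marker, Klf1, was not high in all 3 Alas2-high libraries, which are therefore not called erythroid-rich here. Klf1 (chromosome 8, 84901928 to 84905291, plus strand) gave 452 counts in Smc3/Bcl6 4 and 231 in Smc3/Bcl6 6, but 2 in Smc3/Bcl6 2. The Alas2-low libraries gave 18 Klf1 counts in Smc3/Bcl6 1, 7 in Smc3/Bcl6 3 and 7 in Bcl6 1. Smc3/Bcl6 2 ranked 8 of 9 by Klf1 CPM, so values are given by library and the gene test is repeated without it. Ranking all 9 libraries by Klf1 kept only 3 of the 6 libraries in their set, Smc3/Bcl6 4 and 6 as high and Smc3/Bcl6 3 as low.

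Smc3/Bcl6 2 also stood apart in measures taken over all genes. Total counts ran from 10156728 to 17774577 over the 9 libraries, and its 13659607 lay inside that range. Its TMM factor, which corrects library size for composition, was 0.687, against 0.977 to 1.09 in the other 8. Its genes deviated from the median of the other 8 libraries by a median log2 of 1.07 in the bin of the shortest of 5 exon length bins and by -1.19 in the bin of the longest. The targeted gene Smc3 stood at 91.8 to 128 CPM in the 3 Bcl6 libraries, at 92.0 to 121 CPM in 5 Smc3/Bcl6 libraries and at 19.3 CPM in Smc3/Bcl6 2. Smc3 thus overlapped between the genotypes outside that library, and genotypes are given as labelled. The study reported reduced Smc3 mRNA in Smc3/Bcl6 tumors by RT-qPCR, a measure that was not examined here.

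**Figure D1:**
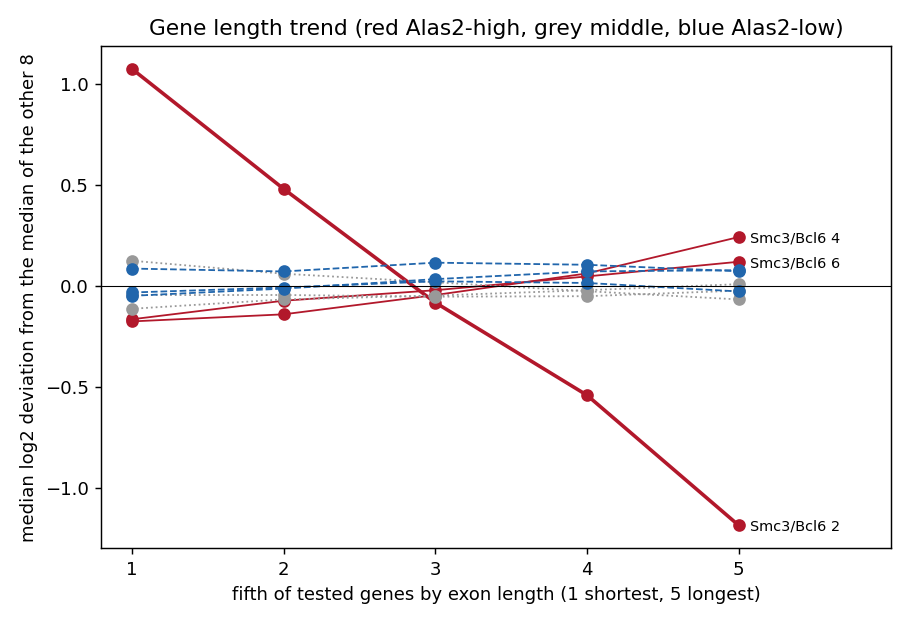
Median log2 deviation of each library from the median of the other 8 (y axis) in each of 5 equal bins of genes by exon length (x axis, 1 shortest, 5 longest); each line is 1 library. Smc3/Bcl6 2 fell from 1.07 to -1.19, and the other 8 libraries lay between -0.18 and 0.24.

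The upstream sequences show the sites that erythroid factors are known to read. For 4 genes the 250 bases before the RefSeq start (GRCm38.p6) are printed 5′ to 3′ on the strand of the gene: Alas2 and Hbb-bs, which were high in all 3 Alas2-high libraries, and Klf1 and Rhag, which were high in Smc3/Bcl6 4 and 6 only. Capitals mark GATA motifs on either strand, which are AGATAA or, with other outer letters, TGATAA, and likewise the forms AGATAG and also TGATAG. Capitals also mark CACCC boxes, written CCNCNCCC with N for any base, on either strand. The windows are chrX:150547167-150547416 (plus strand) for Alas2, chr7:103827929-103828178 (minus) for Hbb-bs, chr8:84901732-84901981 (plus) for Klf1 and chr17:40810899-40811148 (plus) for Rhag.
Alas2: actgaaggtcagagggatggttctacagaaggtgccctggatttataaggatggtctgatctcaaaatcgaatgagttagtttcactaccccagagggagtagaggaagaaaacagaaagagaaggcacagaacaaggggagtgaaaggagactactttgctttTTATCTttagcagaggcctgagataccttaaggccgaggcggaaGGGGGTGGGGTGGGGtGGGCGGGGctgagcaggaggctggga
Hbb-bs: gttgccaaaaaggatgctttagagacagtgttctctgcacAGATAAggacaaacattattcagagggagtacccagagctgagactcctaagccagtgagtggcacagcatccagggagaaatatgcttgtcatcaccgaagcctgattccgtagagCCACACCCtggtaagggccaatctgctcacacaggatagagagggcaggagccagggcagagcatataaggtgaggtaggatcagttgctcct
Klf1: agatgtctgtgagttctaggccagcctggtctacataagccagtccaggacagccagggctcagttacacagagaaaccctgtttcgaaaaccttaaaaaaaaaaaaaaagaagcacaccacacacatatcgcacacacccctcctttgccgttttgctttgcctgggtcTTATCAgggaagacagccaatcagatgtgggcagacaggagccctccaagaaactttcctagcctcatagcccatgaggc
Rhag: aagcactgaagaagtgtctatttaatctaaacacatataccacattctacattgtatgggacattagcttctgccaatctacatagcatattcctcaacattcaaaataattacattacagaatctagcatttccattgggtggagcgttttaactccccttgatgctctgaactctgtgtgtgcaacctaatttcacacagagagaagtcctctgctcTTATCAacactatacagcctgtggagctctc

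Each of the 4 windows held 1 GATA motif, while the CACCC box occurred 4 times before Alas2, 1 time before Hbb-bs and not before Klf1 or Rhag. The 4 CACCC matches of Alas2 overlapped in part. Over 80 windows of 55 erythroid genes, 36.2% held a GATA motif and 63.8% a CACCC box, against 26.5% and 45.9% of all 32851 windows. Of the 16 windows of genes high in all 3 libraries, 37.5% held GATA and 56.2% CACCC. Of the 45 windows of genes high in Smc3/Bcl6 4 and 6 only, 42.2% held GATA and 55.6% CACCC. The CACCC difference between the 4 printed windows was thus not seen between the patterns. The motifs are letter matches and say nothing about binding.

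The adult globin genes and Alas2 were graded over the 9 libraries and were high in Smc3/Bcl6 2 too. Hbb-bs, an adult beta globin (chromosome 7, 103826534 to 103828096, minus strand), stood at 6512, 2053 and 1766 CPM in Smc3/Bcl6 4, 6 and 2. It stood at 56.9, 74.9 and 19.6 CPM in Smc3/Bcl6 1, Smc3/Bcl6 3 and Bcl6 1. The middle libraries Bcl6 2, Bcl6 3 and Smc3/Bcl6 5 lay between the sets at 853, 578 and 275 CPM. The sets did not overlap, with a log2 fold change of 6.18 ± 0.87 (SE, 3 against 3 libraries).

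Hba-a1, an adult alpha globin, stood at 1959, 678 and 530 CPM in Smc3/Bcl6 4, 6 and 2 and at 21.7, 22.5 and 7.91 CPM in Smc3/Bcl6 1, Smc3/Bcl6 3 and Bcl6 1. Its log2 fold change was 6.00 ± 0.77, that of Hba-a2 6.09 ± 0.74 and that of the beta globin Hbb-bt 6.44 ± 0.78. Hba-a1 and Hba-a2 are near-identical copies, as are Hbb-bs and Hbb-bt, so that the split of reads within each pair is uncertain. The summed globin list held 11668, 3828 and 3083 CPM in Smc3/Bcl6 4, 6 and 2 against 40.6 to 124 CPM in the Alas2-low libraries. The embryonic genes were barely counted: Hbb-y, Hbb-bh1 and Hba-x never passed 0.809 CPM. Hbb-b1, Hbb-b2 and Ahsp, the alpha globin chaperone, were not analysed here.

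Bpgm, which makes the bisphosphoglycerate that lowers the oxygen affinity of hemoglobin, stood at 483, 152 and 45.4 CPM in Smc3/Bcl6 4, 6 and 2 against 21.3, 23.3 and 17.7 CPM in Smc3/Bcl6 1, Smc3/Bcl6 3 and Bcl6 1, a log2 fold change of 3.48 ± 0.77. Smc3/Bcl6 2 lay below the middle library Bcl6 2, which had 59.2 CPM of Bpgm.

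**Figure D2:**
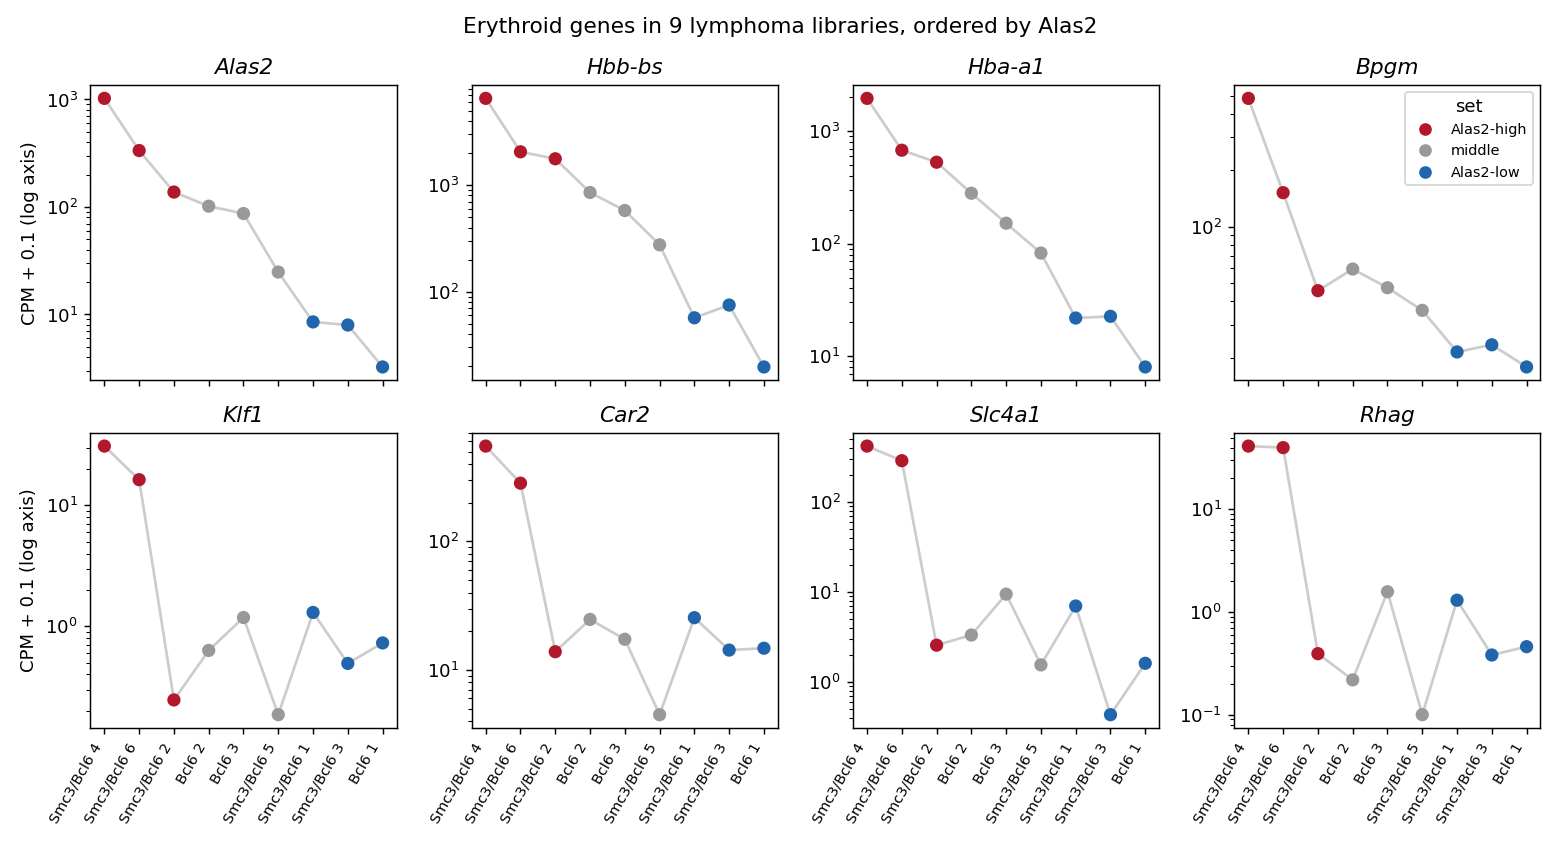
CPM + 0.1 on a log axis (y axis) of 8 erythroid genes in each of the 9 libraries (x axis, ordered by Alas2; 1 point per library, no error bars). Hbb-bs, Hba-a1 and Bpgm fell nearly along the Alas2 order, while Klf1, Car2, Slc4a1 and Rhag were high in Smc3/Bcl6 4 and 6 and not in Smc3/Bcl6 2.

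Most membrane and skeleton genes were high in Smc3/Bcl6 4 and 6 alone. Slc4a1, the band 3 anion exchanger, stood at 421 and 290 CPM in Smc3/Bcl6 4 and 6 but at 2.49 CPM in Smc3/Bcl6 2, within the 0.338 to 6.95 CPM of the Alas2-low libraries. Rhag, the Rh-associated glycoprotein, stood at 41.2 and 39.8 CPM in Smc3/Bcl6 4 and 6 and at 0.293 CPM in Smc3/Bcl6 2, against 0.281 to 1.20 CPM. Smc3/Bcl6 2 thus fell inside the Alas2-low range for both genes.

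The skeleton genes Sptb, which codes for a spectrin chain, and Ank1, which anchors spectrin, showed the same split. Sptb stood at 43.9 and 29.0 CPM in Smc3/Bcl6 4 and 6 and at 0.0732 CPM in Smc3/Bcl6 2, against 0.788 to 2.21 CPM in the Alas2-low libraries. Epb4.2, the protein 4.2 gene, stood at 58.3 and 32.8 CPM and gave 0 counts in Smc3/Bcl6 2. Of 19 membrane and skeleton genes, 15 exceeded all Alas2-low libraries in Smc3/Bcl6 4 and 6 but not in Smc3/Bcl6 2, and 2, Rhd and Tmod1, did so in all 3, against 13.7% and 1.84% of all 13157 genes tested. Rhd, an Rh antigen gene, stood at 37.8, 22.3 and 3.88 CPM against 0.506 to 1.74 CPM. Icam4 gave 0 counts in every library.

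The erythroid transcription factors gave both patterns. Klf1 stood at 30.9 and 16.2 CPM in Smc3/Bcl6 4 and 6, at 0.146 CPM in Smc3/Bcl6 2 and at 1.20, 0.394 and 0.629 CPM in Smc3/Bcl6 1, Smc3/Bcl6 3 and Bcl6 1. Gata1 was at 18.1, 9.98 and 1.24 CPM in Smc3/Bcl6 4, 6 and 2 and at 0.668 to 0.788 CPM in the Alas2-low libraries, and did not overlap between the sets. Nfe2, a factor of late erythroid cells and megakaryocytes, stood at 21.6 and 19.7 CPM in Smc3/Bcl6 4 and 6, at 2.56 CPM in Smc3/Bcl6 2 and at 17.4 CPM in the middle library Bcl6 3. Of the 12 factors, 7 exceeded all Alas2-low libraries in Smc3/Bcl6 4 and 6 only and 1, Gata1, in all 3, against 13.7% and 1.84% of all genes tested. Lmo2, Ldb1, Bcl11a and Myb, which B cells or early progenitors use too, had log2 fold changes of 0.22, 0.34, -0.07 and -0.60.

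The receptors of erythroid growth signals did not share a pattern. Epor, the erythropoietin receptor, stood at 11.1 and 10.8 CPM in Smc3/Bcl6 4 and 6, at 1.02 CPM in Smc3/Bcl6 2 and at 0.788 to 2.34 CPM in the Alas2-low libraries. Kit, the stem cell factor receptor of early precursors and mast cells, ranged from 0.586 to 279 CPM in the Alas2-high and from 2.88 to 151 CPM in the Alas2-low libraries.

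Heme synthesis enzymes other than Alas2 differed far less. Fech, which inserts the iron that completes heme, stood at 495 and 260 CPM in Smc3/Bcl6 4 and 6. It stood at 66.7 CPM in Smc3/Bcl6 2 and at 51.7 to 91.6 CPM in the Alas2-low libraries. Urod, an enzyme of the middle of the pathway, exceeded every Alas2-low library in all 3, at 69.0 to 76.5 CPM against 42.2 to 48.4 CPM. Its log2 fold change was 0.87 ± 0.32. The median log2 fold change of the 7 enzymes without Alas2 was 0.72, and that of 9 iron and heme transport genes was 0.36. Slc25a37, the mitoferrin that carries iron into erythroid mitochondria, stood at 165 and 74.4 CPM in Smc3/Bcl6 4 and 6 and at 5.86 CPM in Smc3/Bcl6 2, below the 19.5 to 27.6 CPM of the Alas2-low libraries. Tfrc, the transferrin receptor of all dividing cells, overlapped between the sets.

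Late erythroid genes mostly stood out in Smc3/Bcl6 4 and 6 alone. Of 15, 11 exceeded all Alas2-low libraries in Smc3/Bcl6 4 and 6 only, and 3, Bpgm and Prdx2 among them, in all 3, against 13.7% and 1.84% of all genes tested. Car2, a carbonic anhydrase, stood at 551 and 283 CPM in Smc3/Bcl6 4 and 6 and at 13.8 CPM in Smc3/Bcl6 2, against 14.2 to 25.4 CPM. Trim10 and Tmcc2 stood at 70.1 and 93.1 CPM in Smc3/Bcl6 4, at 37.7 and 157 CPM in Smc3/Bcl6 6, and at 0.805 and 0.879 CPM in Smc3/Bcl6 2. Pklr, the red cell pyruvate kinase, had 5.12 and 1.55 CPM in Smc3/Bcl6 4 and 6 and gave 0 counts in the other 7. Blvrb, a biliverdin reductase, was the 1 member above all Alas2-low libraries in Smc3/Bcl6 2 only, at 513 CPM against 107 to 182 CPM.

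**Figure D3:**
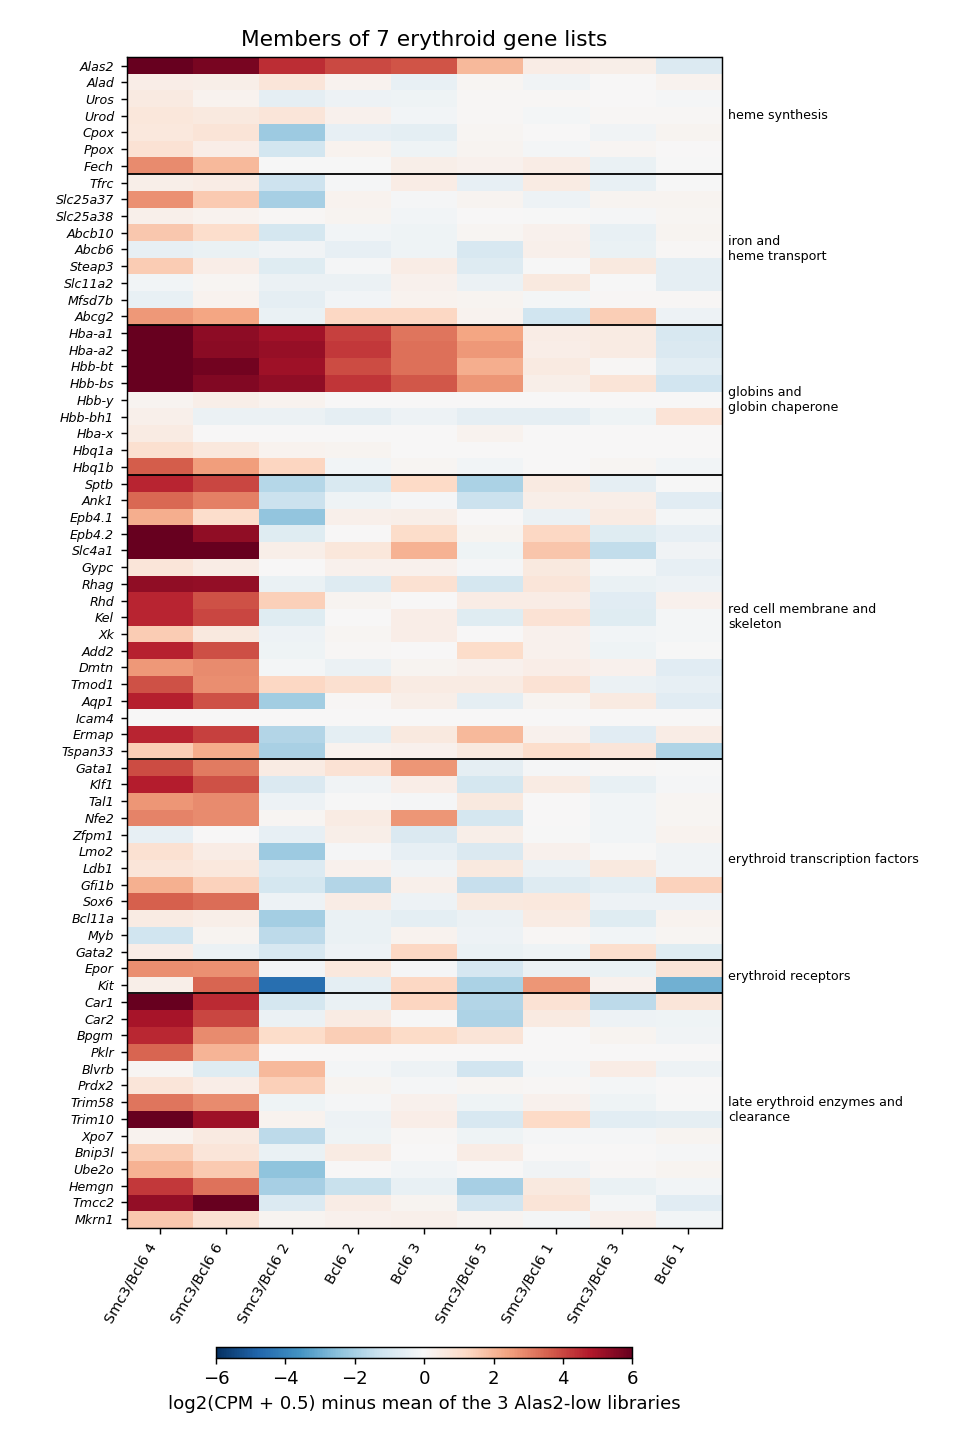
Each row is 1 gene of the 7 erythroid lists, of which some are not shown, and each column 1 library, ordered by Alas2; color gives log2(CPM + 0.5) minus the mean of the 3 Alas2-low libraries, red where higher and blue where lower. Adult globins and Alas2 were high in all 3 libraries at the left, and most membrane genes in Smc3/Bcl6 4 and 6 alone.

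Of the 77 erythroid genes listed, 74 were in the table, 73 without Alas2, and 60 passed the filter on low counts. Of the 73, 16 exceeded all 3 Alas2-low libraries in all 3 Alas2-high libraries (14 of the 60 tested), against 1.84% of all 13157 genes tested. A further 42 did so in Smc3/Bcl6 4 and 6 but not in Smc3/Bcl6 2 (35 of the 60 tested), against 13.7% of all genes. Only Blvrb did so in Smc3/Bcl6 2 alone, against 16.4%, and none of the 73 was lower in all 3, against 5.19%. Since the libraries were selected on Alas2, genes that go with Alas2 had to differ, and nothing is read from these shares.

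Exon length and counts in Smc3/Bcl6 2 differed between the patterns. The 16 genes high in all 3 libraries had a median exon length of 1732.5 bases, and the 42 high in Smc3/Bcl6 4 and 6 only had 4477 bases. Of the 16, 2 had at most 3 counts in Smc3/Bcl6 2 and were not tested. These were Hbb-y and Hbq1a, of 633 and 604 bases, so the median of the 16 rests in part on barely counted genes. Of the 42, 14 had at most 3 counts in Smc3/Bcl6 2, and 10 of the 14 had over 100 counts in Smc3/Bcl6 4. After an offset for exon length and GC content the pattern counts were 24 and 32, against 3.59% and 11.1% of all genes tested. Genes could move between the patterns. Fech, with 13838 bases, then stood at 251 CPM in Smc3/Bcl6 2, above the 46.7 to 81.9 CPM of the Alas2-low libraries. Mkrn1, with 4439 bases and so near the median of the 42, then stood at 244 CPM, above 116 to 162 CPM. Klf1, with 1530 bases, stood at 0.117 CPM in Smc3/Bcl6 2, under the 1.30 CPM of Smc3/Bcl6 1.

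Across all genes the 3 against 3 comparison called no gene by edgeR, and since the libraries were selected on a measured gene its p-values are given as a description only. EdgeR's quasi-likelihood test called 0 of 13157 genes at an adjusted p below 0.05 (0%), in either direction, and 0 of 60 erythroid genes. The lowest edgeR adjusted p was 0.527, shared by Hbb-bt, Hba-a1 and Hba-a2. At an unadjusted p below 0.05, 257 genes passed (1.95%), 172 higher (1.31%) and 85 lower, and 28 of the 60 erythroid genes were among those higher. The median log2 fold change was 1.52 for the 60 erythroid genes, 54 of them above 0, and 0.08 for all genes tested (-0.06 with total count scaling). DESeq2 on the same libraries called 36 genes higher (0.274%) and 1 lower, and limma voom 0 genes. The 36 held 15 erythroid genes, among them the adult globins, Hbq1b, Rhd, Bpgm, Slc4a1, Gata1, Tmcc2, Rhag, Trim10 and Car2. With genotype as a covariate edgeR called 0 genes, and 18 of 60 erythroid genes were higher at an unadjusted p below 0.05, against 0.745% of all genes. With the tissue label as a covariate these were 0 and 13, against 0.441%.

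**Figure D4:**
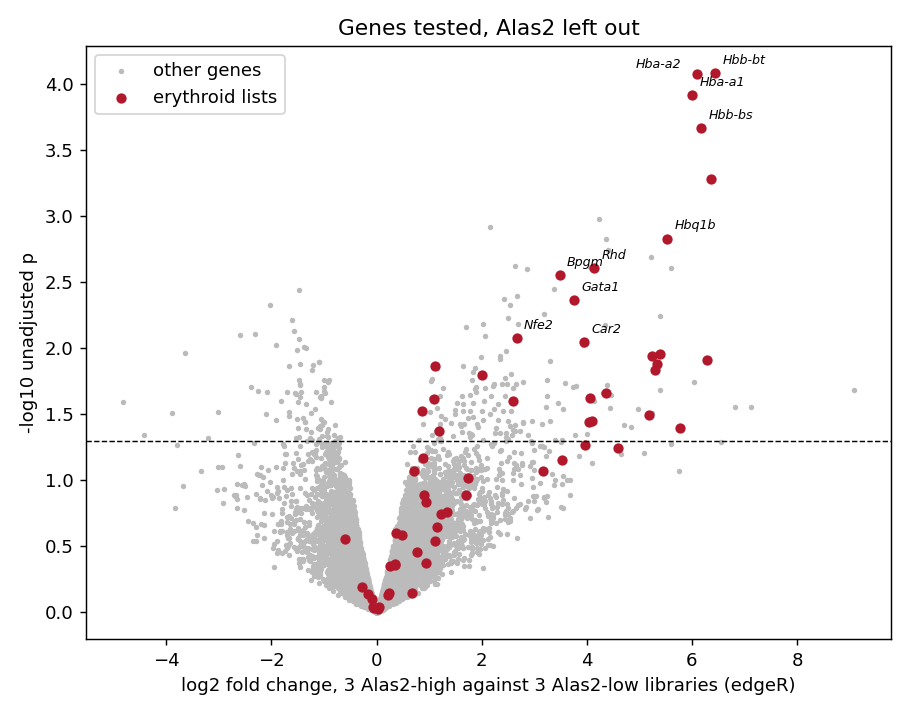
Log2 fold change of the 3 Alas2-high against the 3 Alas2-low libraries (x axis) and -log10 of the unadjusted edgeR p (y axis) for 13157 genes; red points are the 60 erythroid genes tested, and the dashed line marks the unadjusted threshold of 0.05. Of the red points, 54 lie right of 0, with the adult globins at the top right.

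Without Smc3/Bcl6 2, the fold changes of Klf1, Gata1 and Slc4a1 were larger and their errors smaller. That library was left out because its Klf1 was low, so genes that were low in it had to change in this way. The values that follow are a description and no separate support. Klf1 then had a log2 fold change of 4.95 ± 0.66 in place of 4.37 ± 1.48, Gata1 4.25 ± 0.46 in place of 3.76 ± 0.90, and Slc4a1 6.86 ± 1.23 in place of 6.28 ± 1.86. Bpgm moved from 3.48 ± 0.77 to 3.93 ± 0.53. Over 68 erythroid genes the median was 2.74. EdgeR still called 0 of 13771 genes at an adjusted p below 0.05, with 1334 at an unadjusted p below 0.05 (794 higher, 5.77%), among them 47 of 68 erythroid genes, all higher. DESeq2 called 246 genes higher (1.79%) and 85 lower, with 40 of 68 erythroid genes higher, while limma voom called 0 genes and had 1353 at an unadjusted p below 0.05. The number of genes called thus rested on the tool and on this library.

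Some markers of other cell types, but not all, were high in Smc3/Bcl6 4 and 6 too. Cd163, the hemoglobin scavenger receptor of macrophages, stood at 69.2 and 70.5 CPM in Smc3/Bcl6 4 and 6, at 0.0732 CPM in Smc3/Bcl6 2 and at 0.113 to 1.71 CPM in the Alas2-low libraries. Emr1, the F4/80 antigen of mouse macrophages, stood at 161 and 77.8 CPM, 23.1 CPM, and 5.01 to 35.0 CPM in the same order. In the middle library Bcl6 3 it stood at 119 CPM, above Smc3/Bcl6 6. Other macrophage genes named next were chosen after their values were seen. Slc40a1, the iron exporter ferroportin, stood at 1155 and 466 CPM in Smc3/Bcl6 4 and 6, at 4.32 CPM in Smc3/Bcl6 2 and at 8.83 to 137 CPM in the Alas2-low libraries. Lyz2, a lysozyme of most myeloid cells, did not share this split. It stood at 241 and 102 CPM in Smc3/Bcl6 4 and 6 and at 3118 CPM in Smc3/Bcl6 2. The Alas2-low libraries Smc3/Bcl6 1, Smc3/Bcl6 3 and Bcl6 1 had 113, 6243 and 115 CPM of Lyz2. All 20 macrophage genes were tested, 19 had a fold change above 0, 0 were called, and their median log2 fold change was 1.56. Of the 20, 11 exceeded all Alas2-low libraries in Smc3/Bcl6 4 and 6 only, 1 in Smc3/Bcl6 2 only and 0 in all 3. The shares of all genes tested were 13.7%, 16.4% and 1.84%. The genes named thus do not stand for the whole list. The list summed to 3780 to 7097 CPM in the Alas2-high and 422 to 9993 CPM in the Alas2-low libraries, so the sets overlapped. The part of these cells in the erythroid differences was not tested.

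Granulocyte and megakaryocyte genes had medians of similar size. Ear2, an eosinophil ribonuclease, stood at 18.4, 14.1 and 3.37 CPM in Smc3/Bcl6 4, 6 and 2 and at 0.535 to 2.16 CPM in the Alas2-low libraries, without overlap. Clec1b, a receptor of platelets and megakaryocytes, stood at 19.0, 14.3 and 4.32 CPM against 1.07 to 3.88 CPM. Chil3, a chitinase-like protein of neutrophils and macrophages, stood at 259 and 48.8 CPM in Smc3/Bcl6 4 and 6 and 21.2 CPM in Smc3/Bcl6 2, inside the 9.69 to 27.2 CPM of the Alas2-low libraries. The median log2 fold changes were 1.93 over 16 neutrophil genes, 1.83 over 6 eosinophil, basophil and mast cell genes and 1.79 over 9 megakaryocyte genes. Of 16 megakaryocyte and platelet genes 10 exceeded all Alas2-low libraries in Smc3/Bcl6 4 and 6 only, against 13.7% of all genes tested. EdgeR called 0 genes of these lists.

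Lymphoid lists did not separate the sets. The B cell list summed to 13542, 7528 and 4334 CPM in Smc3/Bcl6 4, 6 and 2 and to 6079 to 10805 CPM in the Alas2-low libraries, with a median log2 fold change of 0.20 over 15 genes. The T cell list summed to 279 and 262 CPM in Smc3/Bcl6 4 and 6 but 2356 CPM in Smc3/Bcl6 2, and to 105, 3596 and 369 CPM in Smc3/Bcl6 1, Smc3/Bcl6 3 and Bcl6 1. Its median log2 fold change was -0.23, and -2.91 without Smc3/Bcl6 2. The other lists had medians of 0.47 (8 plasma cell genes), 0.07 (8 dendritic cell genes), 0.52 (8 NK and cytotoxic genes), 0.47 (8 stroma and endothelium genes) and -1.06 (5 stem and progenitor genes). Without Smc3/Bcl6 2 these medians were 0.069, -0.19, -1.80, 1.04 and -1.61 in the same order, so those of the dendritic and NK lists turned sign, and that of the B cell list was 0.42. EdgeR called 0 genes of these lists.

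**Figure D5:**
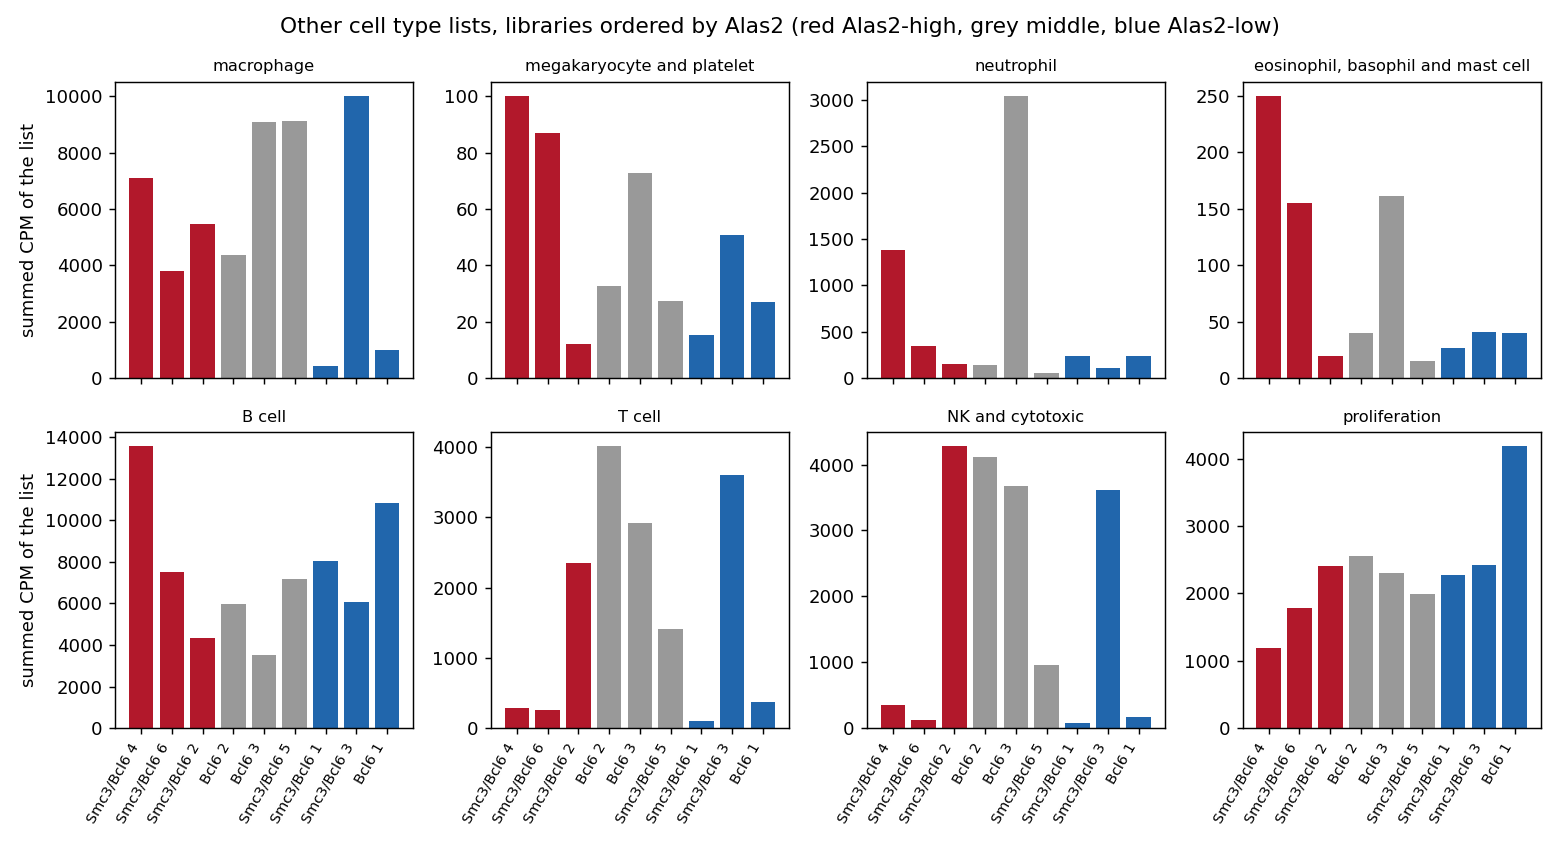
Summed CPM (y axis, from 0) of 8 marker lists in each library (x axis, ordered by Alas2; 1 bar per library, no error bars). The megakaryocyte bars of Smc3/Bcl6 4 and 6 are the tallest of their panel, whereas the macrophage and T cell bars overlap between the sets.

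Several genes of cell division had lower values in the Alas2-high libraries, and none was called. Top2a, a topoisomerase of dividing cells, stood at 86.6, 155 and 55.3 CPM in Smc3/Bcl6 4, 6 and 2 and at 236, 231 and 452 CPM in Smc3/Bcl6 1, Smc3/Bcl6 3 and Bcl6 1. The sets did not overlap, the log2 fold change was -1.51 ± 0.43 and edgeR did not call it. Without Smc3/Bcl6 2 it was -1.35 ± 0.42. Of 20 proliferation genes 5 had a fold change above 0, 6 were below all Alas2-low libraries in all 3 Alas2-high libraries, and the median was -0.42, or -1.10 without Smc3/Bcl6 2. The share of all genes tested with that order was 5.19%. The list summed to 1188, 1782 and 2409 CPM in Smc3/Bcl6 4, 6 and 2. In the Alas2-low libraries it summed to 2273 to 4179 CPM, so Smc3/Bcl6 2 lay inside their range.

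Outside the lists 0 genes passed the adjusted threshold, so the 5 with the lowest unadjusted p in each direction among genes without overlap were taken. Csmd2 had a log2 fold change of 4.23 ± 0.78, St3gal5, a sialyltransferase that makes the simple gangliosides, of 2.16 ± 0.41, and the chemokine Ccl24 of 4.36 ± 0.86. St3gal5 stood at 56.4, 42.4 and 26.4 CPM in Smc3/Bcl6 4, 6 and 2 and at 7.95 to 14.5 CPM in the Alas2-low libraries. Mrap and Pipox had fold changes of 4.40 ± 0.89 and 5.22 ± 1.09, with at most 1.16 CPM of Pipox in any library. The 5 lower genes were Lztfl1 (-1.48 ± 0.34), Ccr9, a chemokine receptor of lymphocytes that home to the gut (-2.03 ± 0.49), the mitotic genes Kif15 (-1.61 ± 0.41) and Kntc1 (-1.57 ± 0.42), and Gm12185 (-2.32 ± 0.62). These 5 lower genes had exon lengths of 5587 to 11152 bases, and Smc3/Bcl6 2 ran low in long genes. Without Smc3/Bcl6 2 their fold changes were -1.52, -1.79, -1.45, -1.40 and -2.34 in the same order. The part of gene length was not tested. Lztfl1 and Ccr9 overlap on chromosome 9 (123694416 to 123717697 and 123678439 to 123784330), so reads could be split between them.

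Over all 9 libraries, 4 of the 10 genes most like Alas2 were adult globins. By Pearson correlation of log2(CPM + 0.5) over 9 libraries, given as a description with no test, Hbb-bt had r = 0.993, Hba-a1 0.991, Hbb-bs 0.988 and Hba-a2 0.987, followed by Epha1 at 0.953 and Bpgm at 0.930. The next were Isg20 at 0.917, Csmd2 at 0.901 and Tmod1 at 0.890. The correlation of these 10 genes with Klf1 was lower, from 0.583 for Hbb-bs to 0.872 for Tmod1. An edgeR fit with log2 CPM of Alas2 as a covariate over the 9 libraries called 6 of 14056 genes, the 4 adult globins and Bpgm among them. The libraries were ranked by Alas2, so this fit restates the correlations above and is no separate support. The middle libraries Bcl6 2 and Bcl6 3 gave 853 and 578 CPM of Hbb-bs with 0.533 and 1.08 CPM of Klf1, so they too held globin RNA with little Klf1.

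The comparison of the study was between genotypes, where a gene passed when its unadjusted p was under 0.1 and its log2 fold change beyond 0.56 in either direction. All 3 Alas2-high libraries were Smc3/Bcl6, so both comparisons share libraries. Of 64 erythroid genes (Alas2 included) tested over 9 libraries by edgeR, 15 passed and all were higher in Smc3/Bcl6, against 2.15% of 14057 genes in either direction and 1.28% higher. Among them were Klf1 (log2 fold change 3.47 ± 1.84), Slc4a1 (4.69 ± 2.31), Rhd (3.15 ± 1.35), Trim10 (5.09 ± 2.18) and Car2 (3.02 ± 1.51). EdgeR called 0 genes at an adjusted p below 0.05 (0%), with 79 at an unadjusted p below 0.05 (0.562%). Pairing replicates 1 to 3 of the genotypes by a replicate block, which leaves out Smc3/Bcl6 4, 5 and 6, let 1 of 55 erythroid genes pass, and the same 6 libraries without the block also gave 1. Over all libraries but Smc3/Bcl6 4 and 6, 0 erythroid genes were higher and 2 lower, with a median log2 fold change of 0.0030 in place of 1.04. Without Bcl6 1, Bcl6 2, Smc3/Bcl6 4 or Smc3/Bcl6 6 alone the number fell to 2, 2, 3 and 4, and without Bcl6 3 to 7. The share of all genes past these thresholds was taken for the fit to all 9 libraries only. The counts of the other genotype fits are therefore not set against all genes.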

How the data were processed

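RNA-seq of 9 tumors (3 Bcl6, 6 Smc3/Bcl6) was analyzed. The authors ran the nf-core RNA-seq pipeline, aligned reads with STAR to mm10, obtained a count per gene from featureCounts, and deposited these raw counts. Per the labels, their later steps used R 4.0.2 and DESeq2 1.28.1. The table held 0 columns without a sample. Strand handling was not given in the sources used here, so overlapping genes may share reads. Of the gene identifiers 97.9% matched the Gencode annotation of GRCm38 used for exon lengths. The exon length of a gene counts the bases of all its annotated exons, merged over its transcripts. The total count of a library was 10156728 to 17774577, where 3 counts are 0.169 to 0.295 CPM.

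The members and gene lists were chosen with earlier results of these data known. The 3 highest and 3 lowest libraries in Alas2 CPM were compared by edgeR 4.0.16 quasi-likelihood (TMM, filterByExpr by set, Benjamini-Hochberg over 13157 genes, called below 0.05, two-sided) in R 4.3.3. DESeq2 1.42.0 and limma 3.58.1 were alternatives. The test was checked on simulated data. Some listed genes are counted but not reported here by name. All erythroid members could be named, up to 4 of any other list (lowest p; the macrophage genes Slc40a1 and Lyz2 fall outside this and were chosen after their values were seen), the 5 genes of lowest p in each direction outside the lists, and the 10 most like Alas2. The deviations of same-numbered replicates 1 to 3 from their genotype means had correlations of 0.471, 0.130 and 0.181. Replicates of different number were not compared in this way, and replicate 1 shares a tissue label in both genotypes. The study states no pairing, so these values do not establish pairs. The fit with the replicate block was an alternative, and its count is given with the genotype result.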

Additional observations from a re-analysis of the deposited data

Results flagged for a closer look

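In 24 measures of the 6 Smc3/Bcl6 libraries, 2 had a library whose gap to its nearest neighbour exceeded 0.625 of the whole range, and chance gives about 1 in 20. The macrophage list in Smc3/Bcl6 1 (422 CPM, the next library at 3780 CPM) had a gap of 0.693 of the range on the scale of log2(CPM + 0.5), used for all CPM values here, but 0.351 of the range in CPM that was not logged, which is under the limit. The TMM factor of Smc3/Bcl6 2 (0.687, the next at 0.977) had a gap of 0.734 of the range with no log taken, and this library is 1 of the 3 Alas2-high ones.

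Middle libraries held other cell type signals that the comparison did not use. The neutrophil list summed to 3041 CPM in Bcl6 3, against 105 to 1382 CPM in the 6 libraries compared. The T cell list summed to 4008 CPM in Bcl6 2, against 105 to 3596 CPM.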

How the results depend on the processing

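EdgeR called 0 genes higher, 0 lower and 0 erythroid genes at an adjusted p below 0.05, and this held under RLE and total count scaling, limma voom with and without quality weights, a fit to all 9 libraries, genotype or tissue label as a covariate, the length and GC offset and without each library in turn (0 to 0 in each case). Other settings moved these counts. No filter on low counts gave 3 genes higher, all 3 erythroid; DESeq2 gave 36 higher, 1 lower and 15 erythroid; Alas2 as a covariate gave 6, all 6 erythroid; an unadjusted p below 0.05 gave 172, 85 and 28. DESeq2 on the 5 libraries without Smc3/Bcl6 2 gave 246, 85 and 40, an alternative added after the data were seen, as were the pattern counts after scaling. Ranking by Klf1 kept 3 of 6 libraries in their set and gave 3 genes lower; there Urod (-0.13), Prdx2 (-0.51), Pipox (-0.0775) and Kntc1 (0.080) changed sign, which follows from the other libraries compared. The 15 erythroid genes past the genotype thresholds became 27 with no filter, 25 with DESeq2, 5 with quality weights, 5 with the tissue label, 0 at an adjusted p below 0.05, 1 with the replicate block, 1 over replicates 1 to 3 without the block and 2 (both lower) without Smc3/Bcl6 4 and 6; without 1 library at a time the range was 2 to 19. For the genotype thresholds the share of all genes passing was taken for the main fit only, at 2.15%. The counts under other settings are therefore not set against all genes. At these depths 3 counts are 0.169 to 0.295 CPM, under which levels are not resolved, and 3 against 3 libraries limits every test.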
